A study of Mus musculus with 12 samples.

Results

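The RGS family, the regulators of G protein signalling, was followed through 10 genes, Rgs2, Rgs3, Rgs4, Rgs5, Rgs10, Rgs12, Rgs14, Rgs16, Rgs17 and Rgs19, in cultured mouse embryonic fibroblasts (MEFs). They are 10 of the 21 genes of the count table whose symbol is Rgs followed by a number, and the table lists 24421 genes. The 10 genes were chosen from measured values of these same libraries, with Rgs16 named ahead of the others, and which values were used is not stated. Values of Rgs16 are therefore a description with no test. P-values of the other 9 genes come from a fit over all 15220 genes tested, and their counts are set beside the share of all genes called, not read as support for the list. All 10 genes passed the filter on low counts, which keeps a gene that is high in 1 group alone. Rgs14 passed it through treated WT libraries, Rgs17 through WT libraries and Rgs5 through all groups but untreated WT. Calls of Rgs14 and Rgs17 enter the counts below as a description, with no support for a difference. The same holds for calls of Rgs5 that use untreated WT libraries.

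RGS proteins bind activated G alpha subunits through a shared RGS domain and speed up the hydrolysis of GTP, which shortens the signal from G protein coupled receptors. R4 proteins (Rgs2, Rgs3, Rgs4, Rgs5 and Rgs16) are mostly small and act on Gi and Gq subunits, R12 proteins (Rgs10, Rgs12 and Rgs14) act mainly on Gi subunits, and RZ proteins (Rgs17 and Rgs19) act on Gz and Gi subunits. In fibroblasts, receptors of this class respond to lysophospholipids, thrombin, endothelin and prostaglandins.

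The 12 RNA-Seq libraries formed 4 groups of 3: WT MEFs and TFEB/TFE3 DKO MEFs, each untreated or exposed to etoposide (100 µM for 8 hr), a topoisomerase poison that breaks DNA. TFEB and TFE3 are transcription factors of lysosomal and autophagy genes, and the DKO cells were edited with CRISPR to lack both. The sample labels call the control genotype Null and its controls untreated, where the study's text writes WT and its methods name DMSO. Both genotypes were immortalized MEFs, each genotype was 1 line, and genotype and line cannot be told apart. No label says that replicates were separate cultures, so the spread between them may be technical. Library totals ran from 45577023 counts (etoposide-treated DKO replicate 1) to 104120871 counts (untreated DKO replicate 2). Levels are in CPM, the counts of a gene per 1000000 counts of the library total after scaling by the trimmed mean of M-values (TMM). Log2 fold changes carry their standard error (SE), and a gene was called at a Benjamini-Hochberg adjusted p under 0.05 from edgeR's quasi-likelihood test.

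Tfeb stood at 38.9, 39.2 and 42.1 CPM in untreated WT libraries and at 4.60, 6.09 and 4.68 CPM in untreated DKO libraries. After etoposide it stood at 11.4, 10.2 and 10.4 CPM in WT libraries and at 1.92, 1.61 and 2.20 CPM in DKO libraries, so DKO libraries were lower in each treatment without overlap. Tfe3 was still counted in untreated DKO libraries, at 94.1, 93.0 and 91.0 CPM against 115, 109.9 and 114 CPM in WT. With etoposide its levels overlapped between the genotypes, at 70.7, 71.2 and 63.4 CPM in DKO and 68.5, 69.6 and 68.1 CPM in WT libraries. Cdkn1a, a p53 target that halts the cell cycle, stood at 71.5, 65.6 and 60.1 CPM in untreated WT libraries and at 498, 511 and 509.9 CPM after etoposide. In DKO libraries it stood at 38.4, 39.8 and 40.7 CPM untreated and at 242, 254 and 227 CPM after etoposide, again with no overlap. Of 11 fibroblast markers, 8 had a mean of 1 CPM or more in all 4 groups. The summed means of the 11 were 7122 CPM in untreated WT, 11745 CPM in untreated DKO, 3991 CPM in treated WT and 5197 CPM in treated DKO libraries, with Fn1 the most abundant in the last of these groups and Vim in the others. Thy1, another of these markers, stood at 4.21 CPM in untreated WT and 0.0365 CPM in untreated DKO libraries. The other fibroblast markers all had higher means in untreated DKO than in untreated WT libraries. Among them, Col3a1 stood at 1231 against 194 CPM and Pdgfra at 197 against 20.9 CPM.

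Promoters are shown for Rgs16, the gene named ahead of the others, for Rgs4 and Rgs5, which lie side by side and share a higher level in untreated DKO cells, and for Rgs17, which was almost silent there. Each sequence is the 250 bases before the RefSeq start in build GRCm38.p6, 5′ to 3′ on the gene's own strand, with CpG dinucleotides in capitals. The windows are chr1:153740103-153740352 on the plus strand for Rgs16, chr1:169747643-169747892 on the minus strand for Rgs4, chr1:169655251-169655500 on the plus strand for Rgs5 and chr10:5922401-5922650 on the minus strand for Rgs17.
Rgs16: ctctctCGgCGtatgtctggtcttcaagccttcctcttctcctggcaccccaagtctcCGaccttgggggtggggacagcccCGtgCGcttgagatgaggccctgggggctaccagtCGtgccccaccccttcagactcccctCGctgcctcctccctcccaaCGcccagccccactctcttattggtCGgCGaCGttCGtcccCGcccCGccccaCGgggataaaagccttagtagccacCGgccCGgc
Rgs4: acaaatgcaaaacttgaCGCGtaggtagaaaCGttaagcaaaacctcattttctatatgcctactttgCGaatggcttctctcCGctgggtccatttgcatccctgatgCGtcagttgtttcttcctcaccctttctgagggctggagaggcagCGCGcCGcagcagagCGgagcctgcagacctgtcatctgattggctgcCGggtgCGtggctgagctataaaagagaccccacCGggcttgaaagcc
Rgs5: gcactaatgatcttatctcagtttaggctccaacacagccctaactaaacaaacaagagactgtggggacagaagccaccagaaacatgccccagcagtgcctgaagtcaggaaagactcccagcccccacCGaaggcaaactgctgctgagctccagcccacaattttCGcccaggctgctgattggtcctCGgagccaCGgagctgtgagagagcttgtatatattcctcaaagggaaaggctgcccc
Rgs17: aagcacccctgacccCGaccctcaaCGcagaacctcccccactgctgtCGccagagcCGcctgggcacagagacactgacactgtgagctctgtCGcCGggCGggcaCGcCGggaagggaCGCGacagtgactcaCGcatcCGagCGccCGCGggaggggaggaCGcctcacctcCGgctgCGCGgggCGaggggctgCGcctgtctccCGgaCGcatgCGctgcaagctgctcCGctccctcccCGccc

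CpG dinucleotides numbered 17 in the Rgs16 window, 13 in the Rgs4 window, 4 in the Rgs5 window and 27 in the Rgs17 window, beside a median of 6 over 32851 RefSeq windows of the same length. The table of RefSeq promoters used here held windows for 9 of the 10 genes, 13 windows in all, with no entry for Rgs14. Searched on both strands, the E-box CACGTG, which TFEB and TFE3 are known to bind, was in 0 of the 13 windows and in 6.02% of all windows. The M-box TCATGTG was in 0 of the 13 windows and in 3.25% of all windows. The AP-1 motif TGANTCA was in 2 of the 13 windows, those of Rgs17 and Rgs12, and in 6.75% of all windows. The TATA box TATAAA was in 3 of the 13 windows, 1 of Rgs4 and 2 of Rgs3, and in 12.37% of all windows. These matches describe letters in the windows, and no factor's binding was measured.

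Divided by exon length, Rgs19 was the most abundant of the 10 genes in untreated WT libraries, at 19.9 ± 0.396 CPM per kb (mean ± SD, n = 3), followed by Rgs10 at 8.18 ± 0.402 CPM per kb. Rgs12, Rgs3, Rgs16 and Rgs17 came next, at 4.69, 3.76, 2.41 and 1.48 CPM per kb. Rgs2 (0.736 CPM per kb) and Rgs4 (0.667 CPM per kb) overlapped between libraries, as did Rgs14 (0.0213 CPM per kb) and Rgs5 (0.0113 CPM per kb). In untreated DKO libraries Rgs19 was again the highest at 23.9 ± 0.735 CPM per kb, and Rgs16 took the second place at 15.7 ± 0.499 CPM per kb. Rgs10, Rgs3, Rgs12 and Rgs4 followed at 11, 9.25, 8.47 and 2.97 CPM per kb. Rgs5 and Rgs2 stood at 0.897 and 0.737 CPM per kb, and Rgs17 (0.00178 CPM per kb) and Rgs14 (0 CPM per kb) closed the order with overlapping libraries. The place of Rgs16 depends on the gene length used. With the longest transcript in place of all exons it was the fourth, at 15.7 CPM per kb, behind Rgs10 at 21.5 and Rgs3 at 21.3 CPM per kb.

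After etoposide, Rgs10 (14.4 ± 0.532 CPM per kb) and Rgs19 (14.2 ± 0.589 CPM per kb) overlapped at the top of the order in WT libraries, ahead of Rgs12 at 12.2 CPM per kb. Rgs3, Rgs16 and Rgs14 followed at 3.35, 2.10 and 1.41 CPM per kb, then Rgs17 and Rgs2, which overlapped at 1.10 and 0.989 CPM per kb. Rgs5 and Rgs4 closed the order at 0.545 and 0.305 CPM per kb. In etoposide-treated DKO libraries Rgs19, Rgs10, Rgs12 and Rgs3 led at 24.7, 17.7, 7.58 and 2.31 CPM per kb. Rgs4, Rgs16, Rgs5 and Rgs2 formed a run in which each overlapped the next, at 0.816, 0.601, 0.531 and 0.501 CPM per kb. Rgs14 and Rgs17 overlapped at 0.0528 and 0.0244 CPM per kb. Other places also depend on the gene length used. With the longest transcript, Rgs10 (28.1 CPM per kb) stood above Rgs19 (21.0 CPM per kb) and Rgs14 (2.51 CPM per kb) above Rgs16 (2.10 CPM per kb) in treated WT libraries, and Rgs3 (8.63 CPM per kb) above Rgs12 (7.27 CPM per kb) in untreated WT libraries.

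The summed level of the 10 genes was 41.9 ± 0.580 CPM per kb in untreated WT libraries and 73.0 ± 1.26 CPM per kb in untreated DKO libraries. After etoposide it was 50.6 ± 0.601 CPM per kb in WT and 54.7 ± 2.03 CPM per kb in DKO libraries. The R4 genes made up 18.1% of this sum in untreated WT, 40.5% in untreated DKO, 14.4% in treated WT and 8.70% in treated DKO libraries. The R12 genes made up 30.8%, 26.7%, 55.3% and 46.2% in the same order of groups, and the RZ genes 51.2%, 32.8%, 30.3% and 45.1%. The untreated DKO libraries were thus the group with the largest R4 share, and Rgs16 alone held 21.6% of the sum there against 5.74%, 4.16% and 1.10% in untreated WT, treated WT and treated DKO libraries. With the longest transcript as the length, the sum in untreated DKO libraries was 112 CPM per kb, of which R4 genes held 37.5% and Rgs16 14.1%, beside shares of Rgs16 of 3.60%, 2.52% and 0.663% in the other groups. In bulk RNA, fewer cells that express a gene and less RNA per cell cannot be told apart.

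**Figure D1:**
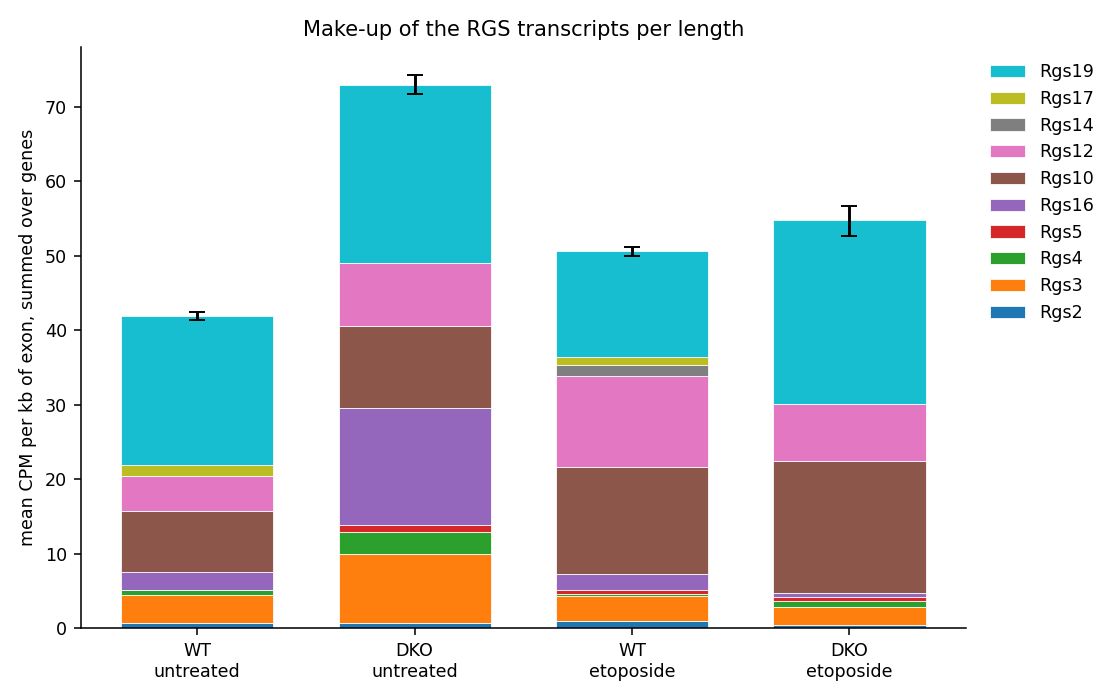
Summed level of the 10 RGS genes per group in CPM per kb of exon, split by gene, as means of 3 libraries with the SD of the sum. The sum was 73.0 CPM per kb in untreated DKO cells and 41.9 CPM per kb in untreated WT cells, and Rgs16 filled 21.6% of the former.

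Rgs16, an R4 protein that acts on Gi and Gq subunits, stood at 5.54, 6.28 and 5.05 CPM in untreated WT libraries and at 37.0, 37.9 and 35.6 CPM in untreated DKO libraries. Etoposide-treated libraries had it at 5.28, 4.66 and 4.81 CPM in WT libraries and at 1.32, 1.08 and 1.83 CPM in DKO libraries. The untreated DKO libraries were above all others and the treated DKO libraries below all others, while the WT groups overlapped. Described without a test, Rgs16 was 6.56-fold higher in untreated DKO than in untreated WT cells (log2 2.71, SE 0.09). In DKO cells it was 25.2-fold lower with etoposide than without (log2 -4.66, SE 0.11), against a log2 difference of -0.19 (SE 0.11) in WT cells. After etoposide it was 3.37-fold lower in DKO than in WT cells (log2 -1.75, SE 0.14), so the order of the genotypes was the reverse of that without drug. An exon of Rgs16 shares 236 bases with Gm28513, an antisense gene absent from the count table, and the library kit was stranded but the strand setting of the counting is not stated.

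**Figure D2:**
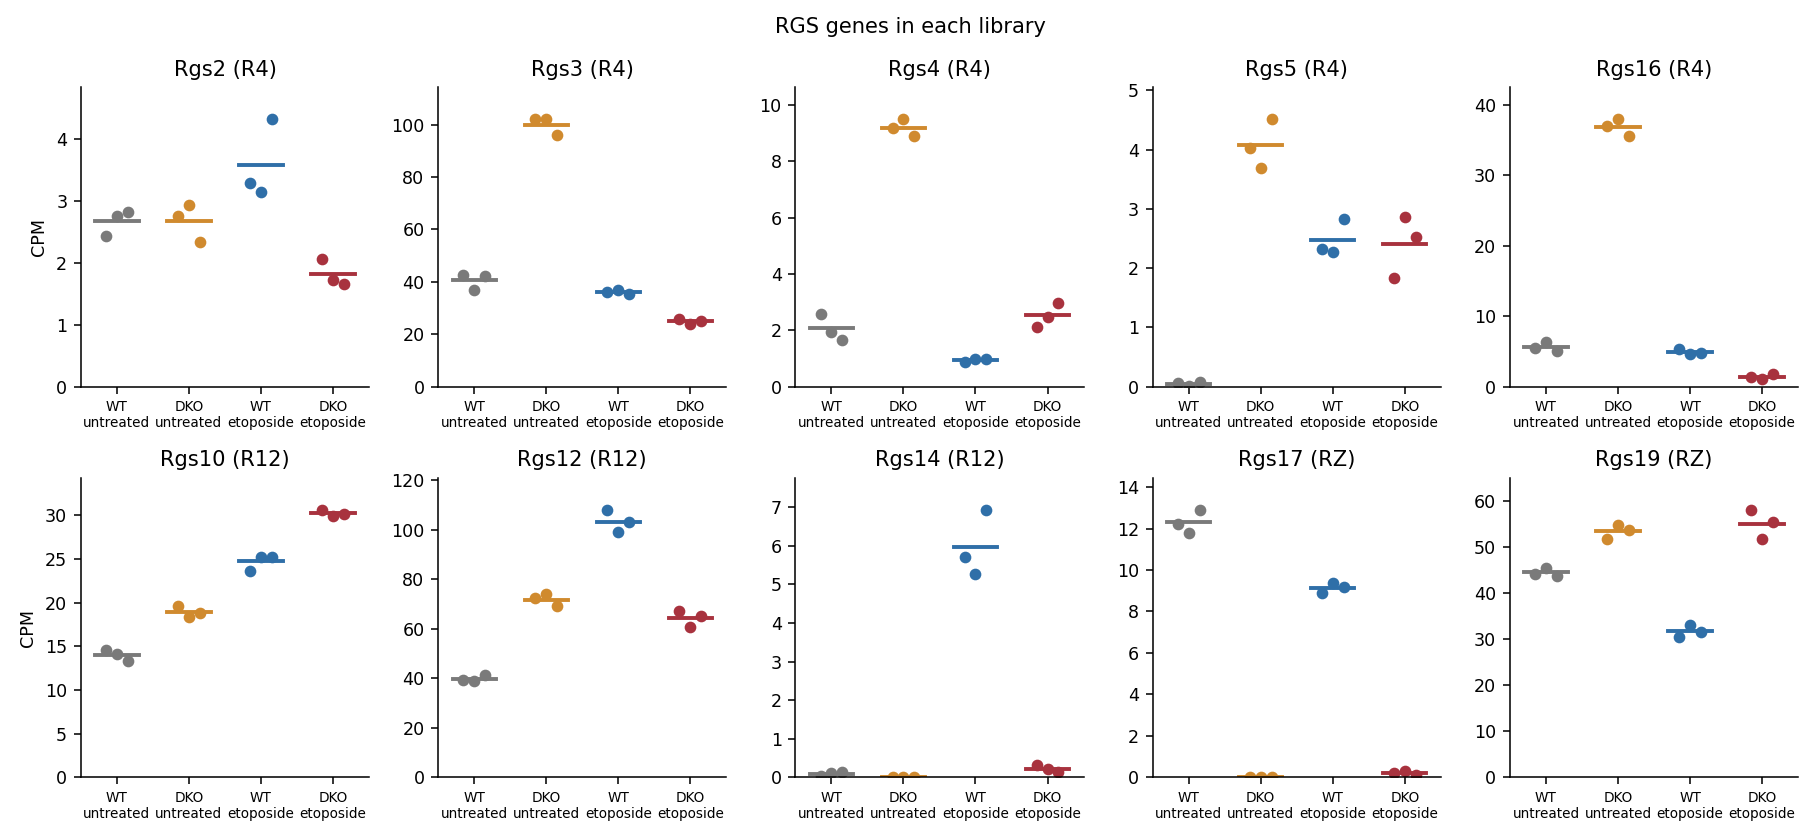
Level of each of the 10 RGS genes in CPM in each of the 12 libraries (points) with the mean of each group (line), by genotype and treatment. Rgs16 lay between 35.6 and 37.9 CPM in untreated DKO libraries and at or under 6.28 CPM in the libraries of the other groups.

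Rgs3, an R4 protein with long forms that carry further domains, stood at 42.6, 36.8 and 42.3 CPM in untreated WT libraries and at 102, 102 and 96.1 CPM in untreated DKO libraries. In treated cells its level lay at 36.1, 36.8 and 35.5 CPM in WT and at 26.0, 23.8 and 25.1 CPM in DKO libraries. As with Rgs16, the untreated DKO libraries were the highest and the treated DKO libraries the lowest, and the WT groups overlapped. Untreated, Rgs3 was higher in DKO than in WT cells by log2 1.30 (SE 0.05, Benjamini-Hochberg adjusted p = 3.23e-13 by edgeR's quasi-likelihood test), in 3 of 3 libraries. In DKO cells it fell with etoposide by 2.00 on the log2 scale (SE 0.05, adjusted p = 1.25e-15 by the same edgeR test), lower in 3 of 3 libraries. In WT cells the log2 change of -0.17 (SE 0.05) had an adjusted p of 0.00859 by the same edgeR test, with overlapping libraries, and scaling by library size alone took it to 0.00 and the stricter filter on low counts to -0.08. Those alternatives gave adjusted p-values of 0.993 and 0.173 in edgeR, within a range of 2.35e-04 to 0.993 over 14 alternatives. With etoposide, Rgs3 was lower in DKO than in WT cells by log2 -0.54 (SE 0.05, adjusted p = 9.71e-08, the same edgeR test), in 3 of 3 libraries.

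Rgs4, an R4 protein that acts on Gi and Gq subunits, stood at 2.59, 1.95 and 1.65 CPM in untreated WT libraries and at 9.19, 9.49 and 8.89 CPM in untreated DKO libraries. With the drug it was at 0.891, 0.968 and 0.977 CPM in WT and at 2.12, 2.49 and 2.98 CPM in DKO libraries. DKO libraries were above WT libraries in each treatment, and treated libraries below untreated ones in each genotype, without overlap. The difference between the genotypes was log2 2.13 untreated (SE 0.13, adjusted p = 1.39e-10, the same edgeR test), higher in 3 of 3 DKO libraries. With etoposide it was log2 1.47 (SE 0.19, adjusted p = 1.84e-06, the same edgeR test), again in 3 of 3. Etoposide lowered Rgs4 by log2 -1.15 in WT cells (SE 0.20, adjusted p = 4.86e-05, the same edgeR test) and by log2 -1.82 in DKO cells (SE 0.13, adjusted p = 5.32e-10), in 3 of 3 libraries of each.

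Rgs5, an R4 protein known as a marker of pericytes, had 5, 1 and 5 counts in the untreated WT libraries (0.0614, 0.0154 and 0.0772 CPM) and 4.03, 3.69 and 4.51 CPM in the untreated DKO libraries. After etoposide it stood at 2.33, 2.28 and 2.83 CPM in WT and at 1.84, 2.87 and 2.53 CPM in DKO libraries. Untreated WT libraries were far below the others, and the treated groups overlapped. Rgs5 passed the filter on low counts through the groups other than untreated WT. Its p-values against untreated WT libraries are therefore a description, with no support for a difference. Untreated, Rgs5 was 75.1-fold higher in DKO than in WT cells (log2 6.23, SE 0.33, adjusted p = 6.60e-12, the same edgeR test), in 3 of 3 libraries. Etoposide raised it 45.8-fold in WT cells (log2 5.52, SE 0.37, adjusted p = 1.15e-10, the same edgeR test) and lowered it by log2 -0.70 in DKO cells (SE 0.15, adjusted p = 2.93e-04), each in 3 of 3 libraries. With etoposide the genotypes differed by log2 0.01 (SE 0.16, adjusted p = 0.959, the same edgeR test), with overlapping libraries. The 9 markers of pericytes and smooth muscle summed to 717 CPM in untreated WT, 1656 CPM in untreated DKO, 661 CPM in treated WT and 798 CPM in treated DKO libraries. Acta2 was the most abundant of them in each group, at 498, 1318, 254 and 623 CPM in that order, and Cspg4 stood at 133, 322, 111 and 127 CPM. Mcam (79.1, 14.3, 131 and 17.8 CPM), Notch3 (4.03, 1.18, 127 and 26.7 CPM) and Des (2.11, 0.386, 36.3 and 2.44 CPM) were instead lowest in untreated DKO and highest in treated WT libraries. Myh11 had means of 0.145, 0.184, 1.72 and 0.826 CPM. Abcc9, Kcnj8 and Higd1b, which mark pericytes, were at 0 in all untreated DKO libraries and at or under 0.239 CPM in the other groups, with Abcc9 at 0.00512 CPM in untreated and 0.239 CPM in treated WT libraries. The part of such cells in the level of Rgs5 was not tested.

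Rgs2, an R4 protein that prefers Gq subunits, stood at 2.43, 2.75 and 2.83 CPM in untreated WT libraries and at 2.75, 2.93 and 2.33 CPM in untreated DKO libraries. Etoposide-treated libraries had it at 3.29, 3.15 and 4.32 CPM in WT and at 2.06, 1.73 and 1.66 CPM in DKO libraries. The untreated groups overlapped, and after the drug the WT libraries lay above and the DKO libraries below them. Untreated, the genotypes differed by log2 0.03 (SE 0.15, adjusted p = 0.9, the same edgeR test), with overlapping libraries. With etoposide Rgs2 was lower in DKO cells by log2 -1.0 (SE 0.16, adjusted p = 1.62e-05, the same edgeR test), in 3 of 3 libraries. The rise in WT cells was log2 0.42 (SE 0.14, adjusted p = 0.0133, the same edgeR test), in 3 of 3 libraries. It depended on the libraries used, since without untreated WT replicate 1 it was log2 0.34 (adjusted p = 0.071, the same edgeR test) and without treated WT replicate 3 it was log2 0.27 (adjusted p = 0.0933), within a range of 0.00126 to 0.0933 over 14 alternatives. The fall in DKO cells was log2 -0.60 (SE 0.17, adjusted p = 0.00341, the same edgeR test), in 3 of 3 libraries, and scaled by library size alone it was log2 -0.33 with an adjusted p of 0.0741, the highest of 14 alternatives (lowest 0.0012).

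Rgs10, the smallest R12 protein, stood at 14.6, 14.1 and 13.3 CPM in untreated WT libraries and at 19.6, 18.4 and 18.8 CPM in untreated DKO libraries. In treated cells its level lay at 23.6, 25.2 and 25.2 CPM in WT and at 30.6, 29.9 and 30.1 CPM in DKO libraries. The 4 groups did not overlap, with treated libraries above untreated ones and DKO above WT in each treatment. Etoposide raised Rgs10 by log2 0.82 in WT cells (SE 0.05, adjusted p = 1.46e-10, the same edgeR test) and by log2 0.68 in DKO cells (SE 0.05, adjusted p = 1.78e-09), in 3 of 3 libraries of each. The genotypes differed by log2 0.43 untreated (SE 0.05, adjusted p = 1.64e-06, the same edgeR test) and by log2 0.29 with etoposide (SE 0.05, adjusted p = 4.24e-05), higher in 3 of 3 DKO libraries each time.

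Rgs12, a long R12 protein with Ras-binding domains and a GoLoco motif, stood at 39.2, 38.8 and 41.4 CPM in untreated WT libraries and at 72.4, 74.0 and 69.2 CPM in untreated DKO libraries. With the drug it was at 108, 99.2 and 103 CPM in WT and at 67.0, 60.8 and 65.0 CPM in DKO libraries. Untreated WT libraries were the lowest and treated WT libraries the highest, with both DKO groups between them. Etoposide raised it 2.60-fold in WT cells (log2 1.38, SE 0.05, adjusted p = 1.53e-14, the same edgeR test), in 3 of 3 libraries. In DKO cells the log2 change was -0.16 (SE 0.05, adjusted p = 0.00398, the same edgeR test), lower in 3 of 3 libraries, but it was 0.11 with scaling by library size alone (adjusted p = 0.0349, the highest of 14 alternatives, lowest 4.54e-04). Rgs12 was higher in DKO cells by log2 0.85 untreated (SE 0.05, adjusted p = 2.45e-11, the same edgeR test) and lower by log2 -0.69 with etoposide (SE 0.04, adjusted p = 2.47e-10), in 3 of 3 libraries each time. An exon of Rgs12 shares 467 bases with Gm43791 on the opposite strand, which the count table does not list.

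Rgs14, an R12 protein with the same accessory domains, had 2, 8 and 8 counts in untreated WT libraries (0.0246, 0.123 and 0.124 CPM) and 0 counts in each untreated DKO library. After etoposide it stood at 5.70, 5.28 and 6.93 CPM in WT libraries, and 16, 16 and 13 counts in DKO libraries gave 0.324, 0.218 and 0.129 CPM. Treated WT libraries were above all others. Rgs14 passed the filter on low counts through that group and was not tested in fits of the 6 libraries of a comparison without it, so it had to differ between some groups. Its p-values are therefore given as a description and are no support for a difference. Etoposide raised Rgs14 by 68.2-fold in WT cells (log2 6.09, SE 0.30, adjusted p = 2.13e-11, the same edgeR test), in 3 of 3 libraries. In DKO cells it was at least 14.6-fold higher with etoposide, against a floor of 3 counts over the untreated group (adjusted p = 0.00109, the same edgeR test, 3 of 3 libraries), or at least 8.47-fold without untreated DKO replicate 2. With etoposide it was 29.1-fold lower in DKO than in WT cells (log2 -4.87, SE 0.25, adjusted p = 5.30e-11, the same edgeR test), in 3 of 3 libraries. Untreated, 18 counts in WT against 0 in DKO libraries put it at least 6.20-fold lower in DKO cells (adjusted p = 0.0211, the same edgeR test, 3 of 3 libraries). That call was lost without untreated WT replicate 2 (at least 4.98-fold, adjusted p = 0.0591 in edgeR), untreated WT replicate 3 (at least 4.96-fold, 0.0594) or untreated DKO replicate 2 (at least 3.58-fold, 0.0606), in a range of 9.89e-05 to 0.0606 over 13 alternatives. Floors and counting intervals cover counting error only.

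Rgs17, an RZ protein that acts on Gz and Gi subunits, stood at 12.2, 11.8 and 12.9 CPM in untreated WT libraries, with 0, 1 and 2 counts in the untreated DKO libraries. Etoposide-treated libraries had it at 8.87, 9.36 and 9.17 CPM in WT libraries, and 11, 21 and 10 counts in DKO libraries gave 0.223, 0.287 and 0.0993 CPM. Rgs17 passed the filter on low counts through the WT groups and was not tested in a fit of the 6 DKO libraries alone. Its p-values between the genotypes and in DKO cells are therefore a description, with no support for a difference. All WT libraries were far above all DKO libraries, where Rgs17 was close to 0 with or without the drug. The 2595 counts of untreated WT libraries against 3 of untreated DKO libraries made it 893-fold lower in DKO cells (95% exact counting interval 305 to 4334, adjusted p = 3.86e-17 by the same edgeR test), in 3 of 3 libraries. Without untreated DKO replicate 1 Rgs17 was 621-fold lower, and without untreated DKO replicate 3 it was 1947-fold lower. With etoposide it was 48.1-fold lower in DKO cells (log2 -5.59, SE 0.18, adjusted p = 5.85e-16, the same edgeR test), in 3 of 3 libraries. Etoposide lowered it by log2 -0.43 in WT cells (SE 0.08, adjusted p = 1.09e-04, the same edgeR test), in 3 of 3 libraries, a call that limma-trend did not make at the same log2 change of -0.43 (adjusted p = 0.212, the highest of 14 alternatives, lowest 1.88e-05). In DKO cells, 42 counts with etoposide against 3 without gave a ratio of 13.7 (95% exact counting interval 4.37 to 68.9, adjusted p = 4.86e-04 by the same edgeR test), higher in 3 of 3 libraries. The ratio was 9.50 without untreated DKO replicate 1 and 29.8 without untreated DKO replicate 3.

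Rgs19, an RZ protein also known as GAIP, stood at 44.2, 45.5 and 43.7 CPM in untreated WT libraries and at 51.6, 54.8 and 53.7 CPM in untreated DKO libraries. In treated cells its level lay at 30.5, 33.1 and 31.5 CPM in WT and at 58.0, 51.7 and 55.4 CPM in DKO libraries. Treated WT libraries were the lowest, and the DKO groups overlapped above the WT groups. Etoposide lowered it by log2 -0.49 in WT cells (SE 0.05, adjusted p = 4.51e-08, the same edgeR test), in 3 of 3 libraries. In DKO cells the log2 difference was 0.04 (SE 0.05, adjusted p = 0.42, the same edgeR test) with overlapping libraries, and 0.32 with scaling by library size alone (adjusted p = 1.03e-05, the lowest of 14 alternatives, highest 1). Rgs19 was higher in DKO cells by log2 0.26 untreated (SE 0.05, adjusted p = 7.97e-05, the same edgeR test) and by log2 0.79 with etoposide (SE 0.05, adjusted p = 6.79e-11), in 3 of 3 libraries each time.

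Counted by comparison, untreated DKO cells had a higher level than untreated WT cells of Rgs3, Rgs4, Rgs5, Rgs10, Rgs12 and Rgs19, 6 of the 9 genes counted, while 33.3% of all genes tested were called higher. Rgs14 and Rgs17, 2 of the 9, were lower, against 33.4% of all genes, and Rgs2 was not called. The call for Rgs14 was lost without untreated WT replicate 2 or 3, or untreated DKO replicate 2. With etoposide, the comparison of the genotypes called 3 of the 9 higher in DKO cells (Rgs4, Rgs10 and Rgs19; all genes 37.5%) and 5 lower (Rgs2, Rgs3, Rgs12, Rgs14 and Rgs17; all genes 36.6%), and Rgs5 was not called. Rgs3 and Rgs12 thus stood higher in DKO cells without the drug and lower with it, as did Rgs16 by description.

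The response to DNA damage in WT cells was a rise of Rgs2, Rgs5, Rgs10, Rgs12 and Rgs14, 5 of the 9 (all genes 42.3%), and a fall of Rgs3, Rgs4, Rgs17 and Rgs19, 4 of the 9 (all genes 37.2%), where Rgs3 was at 0.00 when scaled by library size alone. In DKO cells Rgs10, Rgs14 and Rgs17, 3 of the 9, rose (all genes 43.7%), and Rgs2, Rgs3, Rgs4, Rgs5 and Rgs12, 5 of the 9, fell (all genes 31.5%), of which Rgs12 was higher when scaled by library size alone. Rgs14 and Rgs17 were not tested in a fit of the DKO libraries alone and entered the count of rises through WT groups. Among the R4 genes, all 4 counted fell in DKO cells, with Rgs2 not called when scaled by library size alone, and Rgs16 was lower there by description. The comparisons share groups of libraries and are not independent. Scaling by library size alone moved the median log2 change of all genes from 0.07 to 0.23 in WT cells and from 0.14 to 0.41 in DKO cells, and that of the untreated genotypes from -0.02 to -0.14.

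**Figure D3:**
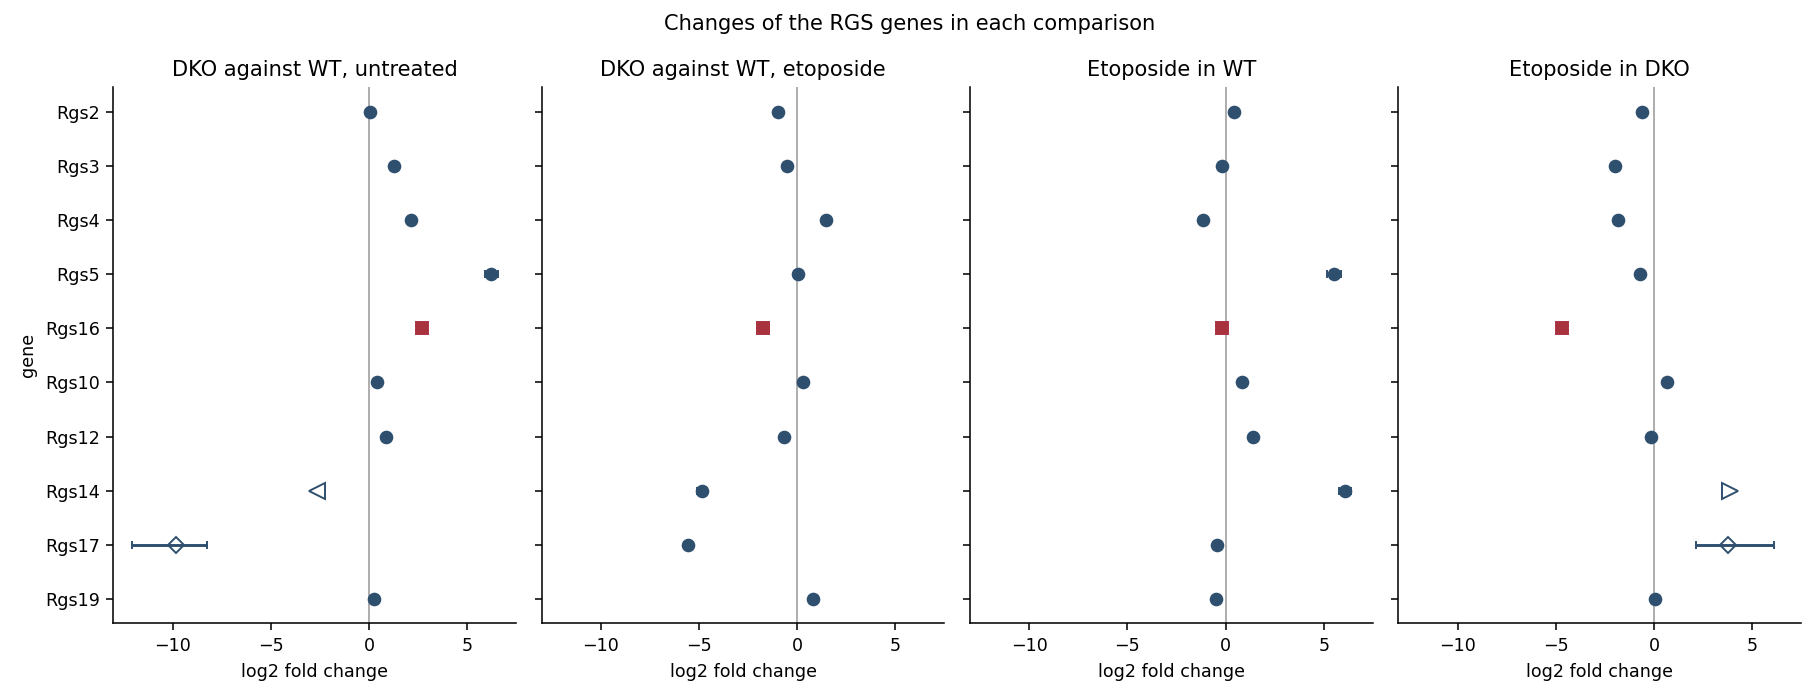
Log2 fold change of each RGS gene in each comparison of 2 groups, with SE; the red square is Rgs16, open triangles are bounds for groups at 0 counts and open diamonds are ratios with 95% counting intervals. In DKO cells, etoposide went with a log2 change of -4.66 for Rgs16 and -2.00 for Rgs3, while that of Rgs12 (-0.16) was 0.11 when scaled by library size alone.

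Whether the response to etoposide differed between the genotypes was tested as the change in DKO cells minus that in WT cells. Of the 9 genes, 5 had a lower response in DKO cells (Rgs2, Rgs3, Rgs4, Rgs5 and Rgs12; all genes 24.4%) and 2 a higher response (Rgs17 and Rgs19; all genes 29.6%), and Rgs10 and Rgs14 were not called. For Rgs5 the difference was log2 -6.22 (SE 0.41, adjusted p = 4.33e-10, the same edgeR test), up in 3 of 3 treated WT libraries and down in 3 of 3 treated DKO libraries. That value rests on 11 counts of Rgs5 over the untreated WT libraries, and its p-value is a description. For Rgs3 it was log2 -1.84 (SE 0.08, adjusted p = 2.29e-12, the same edgeR test), with 3 of 3 treated DKO libraries lower and overlapping WT groups. For Rgs12 it was log2 -1.54 (SE 0.06, adjusted p = 3.09e-12, the same edgeR test), with a rise in 3 of 3 WT libraries and a slight fall in 3 of 3 DKO libraries that turned under scaling by library size alone. For Rgs2 it was log2 -1.02 (SE 0.22, adjusted p = 7.28e-04, the same edgeR test), up in 3 of 3 treated WT and down in 3 of 3 treated DKO libraries. Rgs5 thus moved in opposite directions in the genotypes, Rgs3 mainly in DKO cells and Rgs12 mainly in WT cells. The changes of Rgs2 within each genotype were not called in every alternative, being log2 0.34 and 0.27 in WT cells without untreated WT replicate 1 or treated WT replicate 3, and log2 -0.33 in DKO cells when scaled by library size alone. Rgs16, described without a test, had a difference of log2 -4.47 (SE 0.17).

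For Rgs19 the difference was log2 0.53 (SE 0.07, adjusted p = 2.83e-06, the same edgeR test), with 3 of 3 treated WT libraries lower and overlapping DKO groups. Scaled by library size alone, the change of Rgs19 was log2 -0.32 in WT cells and 0.32 in DKO cells. For Rgs10 it was log2 -0.14 (SE 0.07, adjusted p = 0.123, the same edgeR test; 3 of 3 libraries higher in both genotypes), but DESeq2, DESeq2's size factors in edgeR and the stricter filter called it, at log2 -0.20, -0.20 and -0.19 with adjusted p-values of 0.0293, 0.0277 and 0.0309 (range 0.0277 to 0.731 over 19 alternatives). Rgs10 was thus higher after the drug in both genotypes, and whether by unequal amounts depended on the method. For Rgs4 it was log2 -0.67 (SE 0.25, adjusted p = 0.0302, the same edgeR test; 3 of 3 libraries lower in both genotypes), a call lost with scaling by library size alone (log2 -0.56, adjusted p = 0.0591). That call for Rgs4 was also lost without untreated WT replicate 2 (log2 -0.62, adjusted p = 0.0632 in edgeR) or 3 (-0.53, 0.0763), or treated WT replicate 2 (-0.65, 0.072) or 3 (-0.64, 0.0645), in a range of 0.00352 to 0.0763 over 19 alternatives. Rgs14 and Rgs17 are not given a fitted difference, since untreated DKO libraries had 0 and 3 counts of them. Their adjusted p-values by the same edgeR test were 0.638 for Rgs14 and 2.13e-04 for Rgs17, with Rgs14 higher in 3 of 3 treated libraries of both genotypes and Rgs17 lower in 3 of 3 WT and higher in 3 of 3 DKO libraries. The direction of the difference for Rgs14 cannot be read from these fits, since it depends on how each method treats a group at 0 counts. Unlike edgeR, limma-trend called it, with the other sign (log2 -2.69, adjusted p = 6.74e-04 in limma-trend).

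Rgs4 and Rgs5 lie 45.7 kb apart on chromosome 1 with 0 coding genes between them. Both stood highest in untreated DKO libraries, yet in WT cells etoposide lowered Rgs4 and raised Rgs5. Rgs16 lies 40.0 kb from Rgs8 on the same chromosome, also with 0 coding genes between. Rgs8, an R4 gene outside the 10, had 2, 0 and 0 counts in untreated WT, 0, 11 and 11 in untreated DKO, 7, 7 and 14 in treated WT and 15, 15 and 22 in treated DKO libraries. The treated DKO libraries, where Rgs16 was lowest, were therefore the group with the highest mean of Rgs8, at 0.303, 0.205 and 0.218 CPM. Treated WT replicate 3 came close, at 0.204 CPM.

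Of the 11 Rgs genes outside the 10, 5 passed the filter on low counts and 6 did not (Rgs1, Rgs6, Rgs7, Rgs13, Rgs18 and Rgs21). Rgs20, the remaining RZ gene, stood at 16.6, 16.6 and 16.0 CPM in untreated WT and at 11.9, 14.3 and 13.6 CPM in untreated DKO libraries. With the drug it was at 11.5, 10.5 and 9.22 CPM in WT and at 9.49, 10.3 and 9.15 CPM in DKO libraries. Rgs20 was thus highest in untreated WT libraries, and the treated genotypes overlapped. Its exons share 127 bases with Atp6v1h on the opposite strand, a proton pump gene at 63.5 CPM in untreated WT and 99.2 CPM in untreated DKO libraries, and whether reads of Atp6v1h were counted for Rgs20 was not tested.

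Rgs3 was also among the 5 genes whose log2 CPM followed Rgs16 most closely over the 12 libraries, out of 11996 genes tested whose mean was 1 CPM or more. By Pearson's r these were Map2k3 (0.99), Ralb (0.99), Rgs3 (0.98), Tnfaip3 (0.98) and AI839979 (0.98), with Spearman's rho of 0.94, 0.91, 0.90, 0.85 and 0.83. The libraries form 4 groups of near replicates, so these coefficients mostly compare 4 group means and are given as a description. Map2k3, a kinase that activates p38, had group means of 195 CPM in untreated WT, 300.2 in untreated DKO, 176 in treated WT and 134 CPM in treated DKO libraries. Tnfaip3, an inhibitor of NF-kB signalling, had means of 85.5, 192, 83.9 and 59.1 CPM in the same order. Ralb, a small GTPase, had means of 96.7, 131, 96.6 and 81.9 CPM, and AI839979 had 1.06, 3.43, 1.13 and 0.510 CPM. Each was thus highest in untreated DKO and lowest in treated DKO libraries, over a narrower range than Rgs16. Of these 5 genes, 3 were among the closest 5 without treated WT replicate 1 or treated DKO replicate 2, and 2 without treated DKO replicate 3. Spearman's rho, used in place of r, placed 0 of them there, and scaling by library size alone 3.

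**Figure D4:**
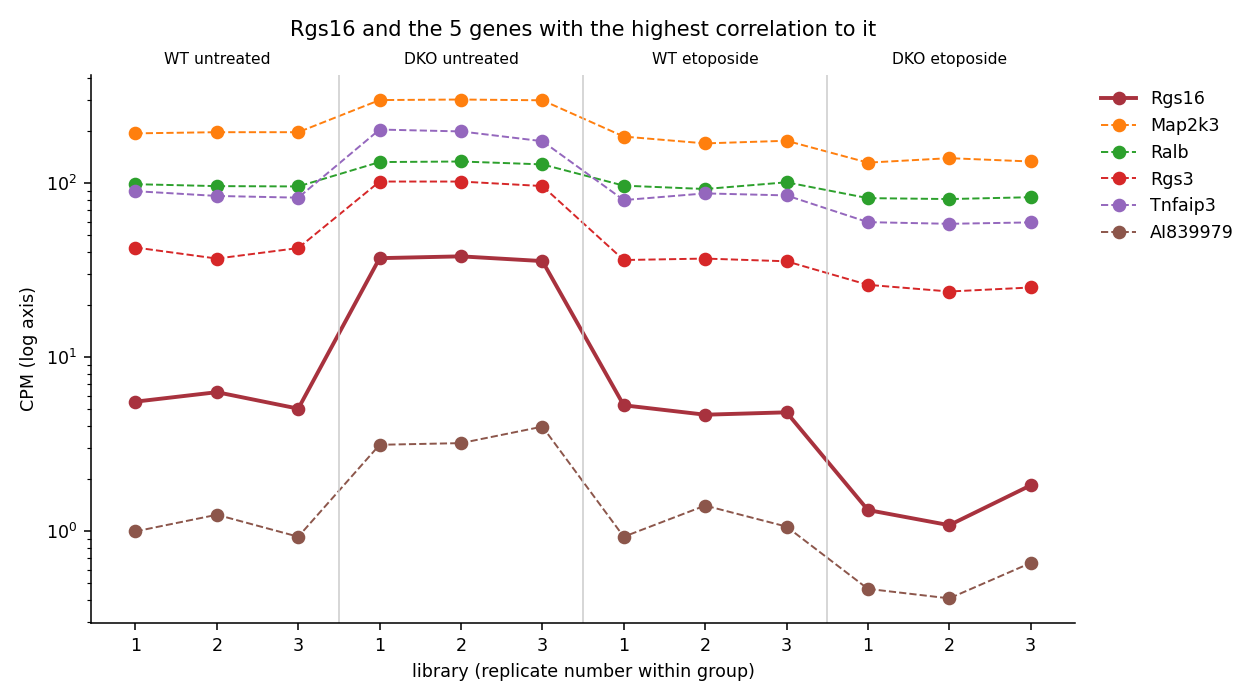
Level in CPM (log axis) of Rgs16 and of the 5 genes with the highest Pearson's r to it in the 12 libraries, by group. All are highest in untreated DKO libraries, where Rgs16 had a mean of 36.8 CPM, and lowest in etoposide-treated DKO libraries, where it had 1.41 CPM.

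The other RGS genes followed Rgs16 less closely, with Pearson's r of 0.67 for Rgs4, 0.41 for Rgs2, 0.16 for Rgs5, 0.09 for Rgs12 and 0.09 for Rgs19 over the 12 libraries. Those of Rgs17, Rgs14 and Rgs10 were -0.37, -0.48 and -0.53. Among these listed genes, the R4 genes Rgs3, Rgs4 and Rgs2 came ahead of the R12 and RZ genes, and Rgs5 also did, by a small margin. Among all 11996 genes compared, Rgs3 had place 3, Rgs4 place 1463, Rgs2 place 3502 and Rgs5 place 4969. Rgs12 and Rgs19 were not far behind Rgs5, at places 5372 and 5383. Apart from Rgs3, many other genes thus followed Rgs16 more closely than the R4 genes did. The order is therefore no sign that R4 genes as a class follow Rgs16.

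Partners of RGS proteins were followed through 6 lists of G protein signalling genes. The list of RGS partners and turnover had 10 genes tested, of which 2 were called higher and 7 lower with etoposide in WT cells, with a median log2 change of -0.74 beside 0.07 for all genes. Rgs9bp, of this list, rose by log2 5.83 in WT cells (SE 0.29) and by log2 2.32 in DKO cells (SE 0.33). Its untreated means were low, at 0.110 CPM in WT and 0.278 CPM in DKO libraries. Ate1, an arginyltransferase of the N-degron pathway that degrades the proteins of Rgs4, Rgs5 and Rgs16, stood at 74.9, 71.2 and 72.0 CPM in untreated and at 33.2, 33.6 and 34.3 CPM in treated WT libraries. In DKO libraries it stood at 91.3, 93.5 and 93.0 CPM untreated and at 58.9, 57.0 and 55.8 CPM with etoposide. Ate1 transcripts were thus lower after the drug in both genotypes, by log2 -1.11 in WT cells (SE 0.04, adjusted p = 1.36e-14, the same edgeR test) and log2 -0.70 in DKO cells (SE 0.04, adjusted p = 9.33e-12), in 3 of 3 libraries of each. In DKO cells 8 of the 10 genes were lower and 1 higher, with a median of -0.24; scaling by library size alone left 3 lower and 1 higher, with a median of 0.03. Of all genes, 42.3% were called higher and 37.2% lower with etoposide in WT cells, and 43.7% and 31.5% in DKO cells.

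The G alpha subunits, on which RGS proteins act, had 15 genes tested, of which 7 rose and 6 fell with etoposide in WT cells (all genes 42.3% and 37.2%) and 7 rose and 7 fell in DKO cells (all genes 43.7% and 31.5%). Scaled by library size alone, 8 rose and 4 fell in DKO cells. Gna15, a Gq-class subunit, went from 0.111, 0.0461 and 0.0154 CPM to 19.9, 21.0 and 23.8 CPM in WT libraries and from 0.0301, 0.0543 and 0.0839 CPM to 3.44, 2.88 and 2.98 CPM in DKO libraries. Gna15 passed the filter on low counts through its treated libraries, so its p-values are a description, with no support for a difference. Its rise was log2 8.41 in WT cells (SE 0.20, adjusted p = 2.04e-17, the same edgeR test) and log2 5.75 in DKO cells (SE 0.31, adjusted p = 3.90e-12), in 3 of 3 libraries of each. With 9, 3 and 1 counts in untreated WT libraries, the former was log2 9.36 without untreated WT replicate 1. Gnaq fell by log2 -1.88 in WT cells (SE 0.04, adjusted p = 6.72e-17, the same edgeR test) and log2 -1.58 in DKO cells (SE 0.04, adjusted p = 6.22e-16), in 3 of 3 libraries of each. Subunits of the class on which R4 proteins act therefore moved both ways.

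The difference between the genotypes in the response to etoposide was counted for each list, beside 29.6% of all genes with a higher and 24.4% with a lower response in DKO cells. Of 32 receptors tested, 5 had a higher and 16 a lower response in DKO cells, with a median of -1.08 beside 0.05 for all genes, and scaling by library size alone gave -0.98 beside 0.15. Untreated, 4 of the 32 receptors had 3 counts or fewer over a genotype, and these medians use their fitted values without a floor. For the other lists the counts higher and lower were 6 and 6 of 15 G alpha subunits, 6 and 2 of 12 beta and gamma subunits, 5 and 5 of 14 effectors, 5 and 3 of 17 other RGS-domain proteins and modulators, and 5 and 2 of 10 partners. Scaled by library size alone, 1 beta or gamma subunit and 1 other RGS-domain protein or modulator had a lower response.

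**Figure D5:**
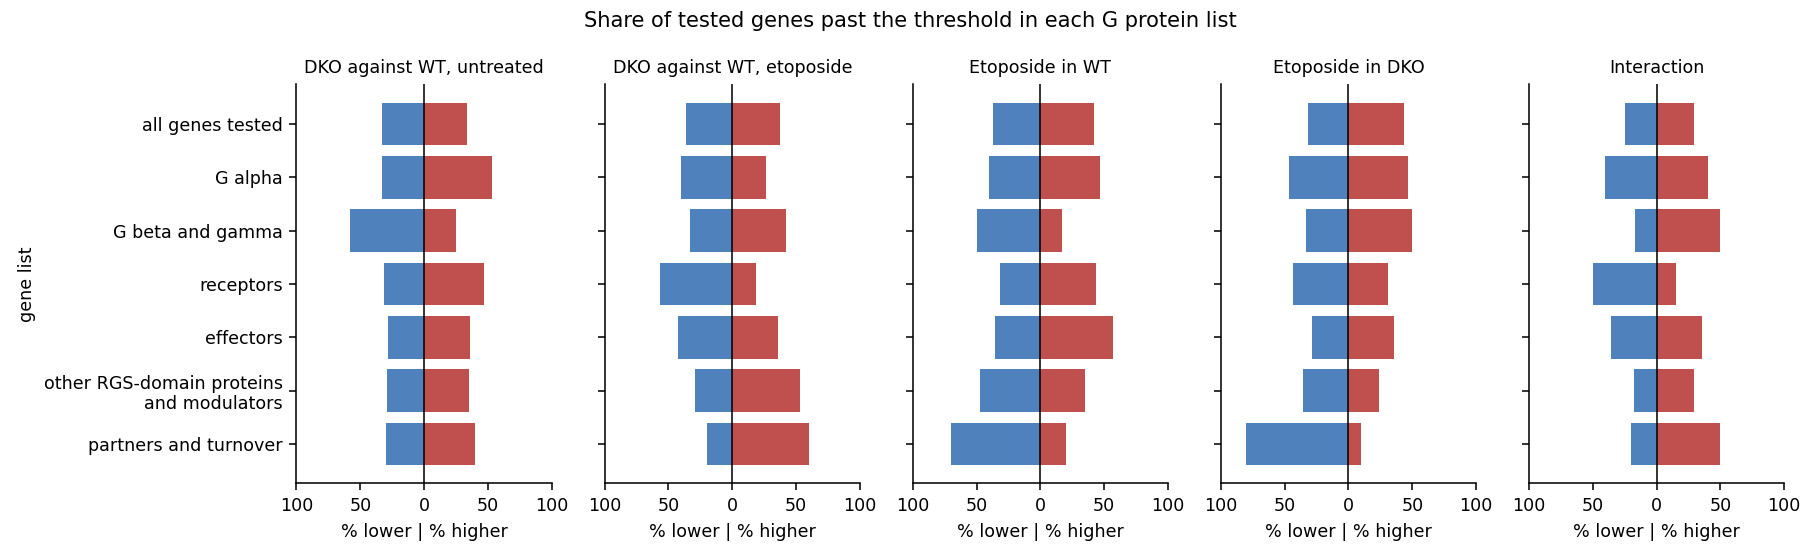
Percent of tested genes called higher (to the right) and lower (to the left) in each list of G protein signalling genes and over all genes, in each comparison. Of the 32 receptors, 16 had a lower response to etoposide in DKO cells, and of the 10 partners 8 fell with etoposide in DKO cells, 3 when scaled by library size alone.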

How the data were processed

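The authors deposited a table of raw counts per gene for 12 libraries; the labels state alignment to mm10 with HISAT2 and counting with featureCounts, while the study's methods name HTSeq and a stranded library kit. Neither gives the strand setting of the counting. Of each library's reads, 53.36% to 63.1% were counted on genes, 20.24% to 27.31% had no feature, 15.94% to 20.51% were not unique and 0.428% to 0.513% were ambiguous. The treated WT libraries stood apart from all others, with 53.36% to 54.97% on genes and 25.09% to 27.31% with no feature. All 24421 genes were read and 15220 passed edgeR's filterByExpr by group. Tests used edgeR 4.0.16 (quasi-likelihood, TMM) in R 4.3.3 with 1 fit of the 12 libraries and Benjamini-Hochberg adjustment over all genes tested, at 0.05. The software was tested on simulated data. Lengths are unions of exons. Fold changes against groups at 0 used a floor of 3 counts over the group; groups of 1 to 3 counts got a ratio with an exact 95% interval. log2 CPM for correlations used a prior count of 2.

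Alternatives were DESeq2 1.42.0, its size factors, limma-trend (limma 3.58.1), library size alone, no filter, a mean of at least 1 CPM, a replicate block, the 6 libraries of a comparison alone, each library left out, Spearman's rho and the longest transcript. The members and lists were chosen with earlier results of these data known. Named genes were the members, other Rgs genes, Tfeb, Tfe3, Cdkn1a and Mdm2, the 5 genes most like Rgs16, and, in each list and comparison, at most the 2 largest rises and falls with a mean of at least 1 CPM. Lists held G alpha subunits, beta and gamma subunits, receptors, effectors, other RGS-domain proteins and modulators, and partners and turnover. Markers covered fibroblasts, pericytes and smooth muscle, endothelium, leukocytes and epithelium. Tables and figures used Python 3.11.15, pandas 2.3.3 and scipy 1.17.1.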

Additional observations from a re-analysis of the deposited data

Results flagged for a closer look

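The response to etoposide differed between DKO and WT cells, by the interaction term of the fit, for 7 of the 9 RGS genes tested, beside 54.0% of all 15220 genes. As the log2 change in DKO cells minus that in WT cells, the difference was -1.02 for Rgs2, -1.84 for Rgs3, -0.67 for Rgs4, -6.22 for Rgs5, -1.54 for Rgs12 and 0.53 for Rgs19, and the call for Rgs4 was lost in 5 of 19 alternatives. For Rgs17, with 3 counts in untreated DKO libraries, only the adjusted p of the edgeR test is given, 2.13e-04, with 3 of 3 treated WT libraries lower and 3 of 3 treated DKO libraries higher. Rgs16 had a difference of -4.47 and is given without a test. All 10 genes were chosen from values of these libraries, so the calls are no independent support for a difference.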

How the results depend on the processing

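Of 672 alternative values of the 9 RGS genes tested, 636 kept their direction and their side of the threshold, 16 stayed uncalled with the other sign, and 20 changed. Each of the 75 alternative counts of genes called, and each of the 75 counts of RGS genes called, was within 1.5 times its reported count. With scaling by library size alone, Rgs12 turned from lower to higher with etoposide in DKO cells (log2 0.11). With limma-trend, the fitted difference in response of Rgs14 took the other sign and was called (log2 -2.69, adjusted p = 6.74e-04 in limma-trend). This value rests on untreated DKO libraries at 0 counts and gives no direction. Of the 5 genes most like Rgs16, 0 were among the closest 5 by Spearman's rho, 3 with scaling by library size alone, and 2 to 5 when each library was left out; the cause was not tested. Of the alternatives for Rgs14 and Rgs17, 3 gave no value, since the genes did not pass the filter of that fit. Of 80 alternative levels per kb, 45 moved by more than 1 SD, and the longest transcript took the share of Rgs16 in untreated DKO libraries from 21.6% to 14.1%.

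Replicate numbers did not pair the libraries: correlations of deviations between libraries with the same number ran from -0.101 to 0.107, and not every library correlated best with its own number. With the replicate number as a block, 12111 genes were called for etoposide in WT cells and 8208 for the interaction, beside 12091 and 8226 without it.

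Depth limits Rgs5, Rgs14 and Rgs17, which had 11, 0 and 3 counts in their lowest group, and replicates of unstated origin limit what the p-values cover.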

Other observations

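Rgs9, an Rgs gene outside the 10, had 166 counts over the untreated WT libraries, 1 over the untreated DKO libraries, 252 over the treated WT libraries and 25 over the treated DKO libraries. Like Rgs17 it was therefore close to 0 in untreated DKO cells, with its 1 count there in replicate 3. Rgs9bp, the gene of its membrane anchor, had means of 0.110 CPM in untreated WT, 0.278 in untreated DKO, 6.0 in treated WT and 1.26 CPM in treated DKO libraries. Mdm2, a p53 target that degrades p53, had means of 121, 109, 1834 and 589 CPM in the same order.

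Markers of endothelium, epithelium and leukocytes were low: summed over 5 endothelial markers, group means reached 2.63 CPM (treated WT, with Tek the most abundant), and over 4 epithelial markers 5.35 CPM (untreated DKO, Krt8). The sum of 6 leukocyte markers was 2.00 CPM in untreated WT, 2.14 in untreated DKO, 14.2 in treated WT and 4.31 CPM in treated DKO libraries, mostly Cd68, a lysosomal protein.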
